A study of Mus musculus with 6 samples.

Results

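The S100 genes encode small calcium-binding proteins, and 10 of them, *S100a1*, *S100a4*, *S100a6*, *S100a8*, *S100a9*, *S100a10*, *S100a11*, *S100a13*, *S100a16* and *S100b*, were followed through RNA-seq of stimulated mouse osteocytes. They were found by gene symbol, 10 of the 56748 genes in the table of counts. Primary osteocytes had been prepared from long bones of C57BL/6 mice, given as 7 weeks old in the methods, cultured for 7 days, and exposed to lipopolysaccharide (LPS) at 10 ng/mL for 3 h and then to aluminum hydroxide at 20 µg/mL for 3 h, a treatment meant to induce pyroptosis. The WT group and the group labelled cKO each had 3 libraries, and both received the same stimulation. The cKO mice carried homozygous floxed *Gsdmd* alleles (*Gsdmd* fl/fl) and DMP1-Cre, a recombinase driven by the promoter of *Dmp1*, so the deletion was directed to cells that use this promoter, and the WT animals were C57BL/6J mice described without Cre or floxed alleles. No unstimulated libraries were analysed here.

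S100 proteins work mostly as dimers. Inside the cell, calcium binding exposes a surface on which they grip partner proteins such as annexins and myosin, and S100A10 is unusual in the family because it holds this shape without calcium. Some members leave stressed or dying cells and then act as alarm signals on receptors such as RAGE and Toll-like receptor 4. S100A8 and S100A9 usually pair to form calprotectin, an antimicrobial complex of neutrophils and monocytes, whereas S100A1 and S100B are known from cartilage, muscle or nervous tissue.

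The library totals lay between 39566835 and 49734046 counts. *Gsdmd* itself had 549 to 699 counts in WT against 885 to 1045 in those labelled cKO (log2 fold change 0.69, adjusted p = 2.27e-06), which goes against the label, although the floxed exons were not counted apart from the rest of the gene, so each direction below rests on the label as given. *Xist* was counted 0 to 4 times in WT against 44817 to 51216 times in the libraries labelled cKO, and the Y-linked *Ddx3y* 4033 to 5455 times in WT against 0 times in every library labelled cKO. The genotype label and this difference in sex-linked genes cannot be told apart in any comparison that follows. Of 7 osteocyte markers, *Sost* and *Mepe* stayed at 3 counts or fewer in every library and *Dmp1* reached at most 6 counts, while *Pdpn* had 7743 to 11932 counts. The records do not say that the 3 libraries of a group came from separate animals, so p-values measure the spread between these libraries, which may be technical. Levels are given as CPM, counts per 1000000 after TMM scaling, and as TPM, which also divides by gene length and so allows one gene to be set against another. The quasi-likelihood test of edgeR was run on 17146 genes, a gene passed when its p-value after Benjamini-Hochberg adjustment was below 0.05, and adjusted p-values below are from edgeR unless another tool is named.

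Of the 10 genes, 9 lie on chromosome 3 and *S100b* lies on chromosome 10. On mm39, 185 kb of chromosome 3 from *S100a1* (start 90418341) to *S100a9* (end 90603028) held 16 listed genes, of which 12 were S100 genes and the other 4 had at most 1 count in any library. *S100a11* (93427795 to 93433594) and *S100a10* (93462387 to 93471950) lie farther along the chromosome. *S100a1* and *S100a13* point away from each other, with 42 bases between their ends in the table. In RefSeq (GRCm38.p6) 104 bases lie between the starts of this pair, and the promoter windows of both genes share 204 bases. This stretch is shown because *S100a1* passed the test below and its close neighbour did not, a difference between the genes that was not itself tested. It lies at chr3:90514301-90514464 on the plus strand, and capitals mark the bases between the start of *S100a1* on the left, which is read leftward, and the start of *S100a13* on the right.
S100a1 and S100a13: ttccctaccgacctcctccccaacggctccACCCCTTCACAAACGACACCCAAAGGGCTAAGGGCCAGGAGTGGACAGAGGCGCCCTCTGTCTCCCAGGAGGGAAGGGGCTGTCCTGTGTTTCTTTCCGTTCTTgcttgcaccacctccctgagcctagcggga
Promoter sequences of *S100a8* and *S100a9* are shown because these neighbours, whose proteins usually pair, were counted so differently here. Each runs from 250 bases before the RefSeq start to 30 bases from it, at chr3:90668821-90669100 on the plus strand for *S100a8* and at chr3:90695692-90695971 on the minus strand for *S100a9* (GRCm38.p6), and capitals mark matches to the motifs searched.
S100a8: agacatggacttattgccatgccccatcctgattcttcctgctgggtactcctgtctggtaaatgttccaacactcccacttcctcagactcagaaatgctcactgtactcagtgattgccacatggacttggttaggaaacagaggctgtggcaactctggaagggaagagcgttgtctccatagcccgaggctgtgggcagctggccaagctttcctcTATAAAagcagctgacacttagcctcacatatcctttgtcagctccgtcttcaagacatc
S100a9: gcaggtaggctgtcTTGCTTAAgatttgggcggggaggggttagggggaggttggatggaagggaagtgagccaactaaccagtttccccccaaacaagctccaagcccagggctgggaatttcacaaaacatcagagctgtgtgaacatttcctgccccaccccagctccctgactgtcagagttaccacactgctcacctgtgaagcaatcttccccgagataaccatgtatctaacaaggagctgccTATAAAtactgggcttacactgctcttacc
The TATA box TATAAA begins 30 bases before the start of *S100a8* and at the annotated start base of *S100a9*, and the C/EBP consensus TTGCNNAA matched *S100a9* once, 236 bases before its start. Either strand was searched, and the windows reached 50 bases past the start. TATAAA was found in 13.6% and TTGCNNAA in 10.8% of all 32851 RefSeq promoter windows of this length. Among the 9 members with a window, TATAAA also matched *S100a4*, 31 bases before its start, and the AP-1 motif TGACTCA, present in 5.2% of all windows, matched *S100a11* at 2 places on its reverse strand. The NF-kB motif GGACTTTCC (0.344% of windows) and the C/EBP palindrome TTGCGCAA (0.183%, and contained in TTGCNNAA) matched no member, which says only that these letters are not in the windows. *S100a10* had no window.

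*S100a11* and *S100a6* were by far the most abundant S100 transcripts per length in both genotypes, and *S100a9* was counted 0 times in every library. In WT, *S100a11* stood at 1854 ± 157 TPM (SD, n = 3) and *S100a6* at 1120 ± 263 TPM (SD, n = 3), and together with *S100a10* (222.3 ± 19.9 TPM, n = 3) they led the order. *S100a11* alone made up 51.4% of the summed TPM of the members in WT and 51.1% of it in the libraries labelled cKO, as means of 3 libraries. *S100a16* followed at 132.3 ± 8.8 TPM, then *S100a1* at 110.5 ± 10.6 TPM and *S100a13* at 109.7 ± 12.8 TPM (SD, n = 3 each), and the libraries of these last genes overlapped. *S100b* had 39.2 ± 2.63 TPM, *S100a4* 25.2 ± 2.86 TPM and *S100a8* 5.94 ± 1.3 TPM in WT (SD, n = 3 each). In the libraries labelled cKO the first 3 places were the same, but *S100a1* came next at 175.8 ± 11.8 TPM and *S100a16* dropped behind *S100a13* to 79.5 ± 3.26 TPM (SD, n = 3 each). There *S100b* (32.2 ± 3.25 TPM) and *S100a4* (31.9 ± 4.02 TPM) overlapped, and every other pair of neighbours in either order was separated in all 3 libraries. The summed TPM of the 10 genes was 3762, 3978 and 3119 in WT against 3173, 3246 and 3142 in the libraries labelled cKO, so the groups overlapped and WT replicate 3 held the lowest sum.

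**Figure D1:**
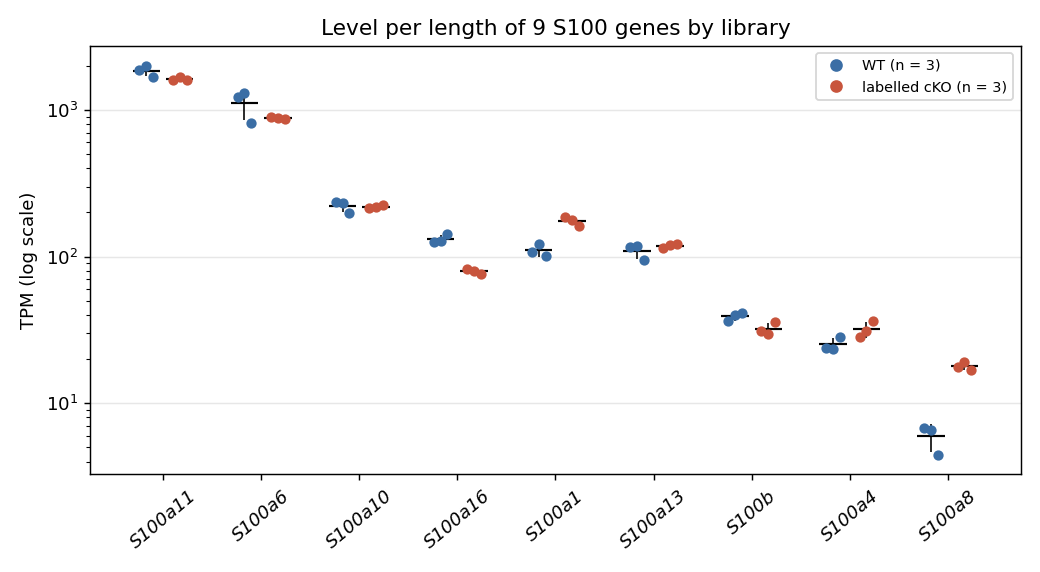
TPM (log scale) of the 9 S100 genes with counts, in order of their WT mean, with 1 point per library, a bar at the mean and a line for ± 1 SD (n = 3 per genotype). *S100a11* and *S100a6* sit above all other members in both genotypes, and *S100a8* is the lowest of the genes with counts, at 4.45 to 6.81 TPM in WT against 16.96 to 19.06 TPM in the libraries labelled cKO.

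Of the 9 members with enough counts to be tested, 2 passed as higher and 3 as lower where the label was cKO, and 4 did not pass. *S100a8* and *S100a1* rose, and *S100a16*, *S100a6* and *S100a11* fell. Among all tested genes, 20.1% passed as higher and 19.2% as lower. When the log2 fold change also had to reach 1 in size, *S100a8* was the only member left, as higher, and 0 members were lower, beside 6.56% of all tested genes higher and 4.64% lower. In CPM the groups were fully apart for 4 of the 9 members, *S100a1*, *S100a4*, *S100a8* and *S100a16*, against 49.2% of all tested genes. The median log2 fold change was 0.0058 over the 9 members and 0.0077 over all tested genes. In bulk RNA, fewer cells of a type and less RNA per cell cannot be told apart.

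**Figure D2:**
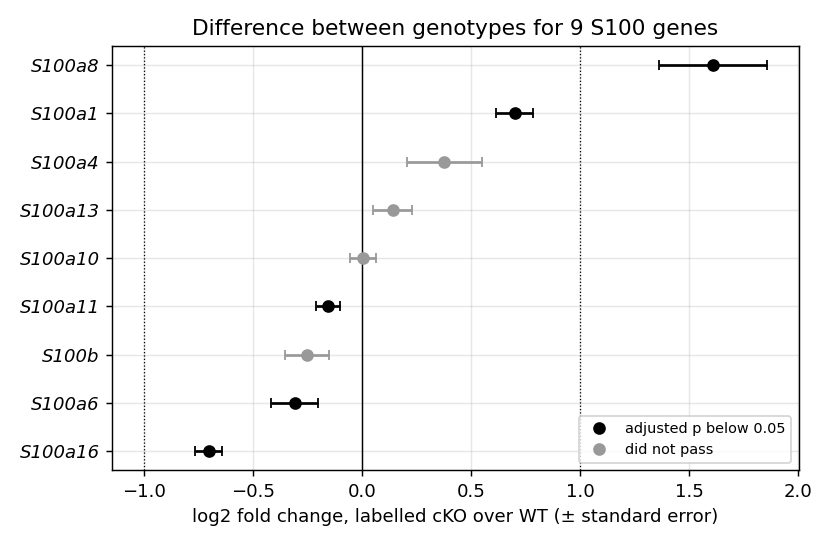
Log2 fold change of 9 S100 genes between the libraries labelled cKO and WT, with bars of ± 1 standard error from edgeR's fit. Black points passed at an adjusted p-value below 0.05, grey points did not, and dotted lines mark a log2 fold change of 1 in size, which *S100a8* alone exceeds at 1.61.

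*S100a8* (chromosome 3, 90576285 to 90577342), which encodes one chain of calprotectin, rose most. Its counts were 55, 59 and 31 in WT against 136, 140 and 142 in the libraries labelled cKO. Every library labelled cKO was above every WT library, and WT replicate 3 was the lowest of all. From a WT mean of 1.07 ± 0.235 CPM it came to 3.29 ± 0.204 CPM (SD, n = 3 each), 3.05-fold in the fit. This log2 fold change of 1.61 had a standard error of 0.25 (adjusted p = 4.35e-05) and lay between 1.44 and 1.70 when any one library was left out.

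*S100a9* (chromosome 3, 90599939 to 90603028), the other chain of calprotectin, had 0 counts in all 6 libraries and could not be tested. A count of 0 allows up to 3 counts in a library, which is 0.06 to 0.077 CPM, or 0.443 to 0.572 TPM for this gene. The TPM of *S100a8* was 7.77 to 14.8 times this limit in the WT libraries and 34.1 to 35.6 times in those labelled cKO. The limits cover the counting error of *S100a9* only, not that of *S100a8*. Between 63.4% and 65.7% of the counts from 1 to 10 in a library were even, against 51.9% to 53.2% of those from 11 to 100. Among the low counts it was as if the mates of one fragment had often each been counted, so 3 counts may stand for fewer fragments. With the counts of *S100a8* halved and the same limit of 3 for *S100a9*, *S100a8* was at least 4.01-fold above that limit in each WT library. In each library labelled cKO it was at least 17.1-fold above it.

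Markers of blood cells moved in the same libraries as *S100a8*. All 13 tested macrophage markers of 15 passed as higher, at a median log2 fold change of 3.15, and their summed level was 1217 to 1371 CPM in WT against 6440 to 6744 CPM in the libraries labelled cKO. *Lyz2*, the lysozyme of macrophages and granulocytes and the most abundant of them, rose from 985.3 ± 57.1 to 4515 ± 114 CPM (SD, n = 3 each). Of 16 neutrophil markers, 8 stayed at 3 counts or fewer in every library (*Ctsg*, *Cxcr2*, *Fcnb*, *Ly6g*, *Mpo*, *Ngp*, *Retnlg* and *Stfa2l1*), and 4 were tested. Of these 4, *Csf3r* (log2 fold change 4.30), *Mmp8* (2.11) and *Camp* (0.49) passed as higher and *Prtn3* (-1.16) as lower. The call of *Camp* was lost in 5 of the 6 refits without 1 library, all but that without WT replicate 2 (adjusted p = 0.0637 to 0.17). The summed level of the neutrophil list was 10.3 to 13.3 CPM in WT against 29.3 to 33.7 CPM in the libraries labelled cKO. *Mmp8* alone made up most of the sum where the label was cKO, going from 4.55 ± 1.41 to 19.5 ± 1.57 CPM (SD, n = 3 each). The part of blood cells in the rise of *S100a8* was not tested.

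*S100a1* (chromosome 3, 90418341 to 90421699), a regulator of calcium handling and contraction in muscle that chondrocytes also express, was higher by 1.62-fold. It was counted 873, 1099 and 706 times in WT against 1439, 1314 and 1363 times in the libraries labelled cKO. The groups did not overlap, with 18.2 to 22.1 CPM in WT against 30.0 to 34.2 CPM in the libraries labelled cKO. Its log2 fold change was 0.70 (standard error 0.083, adjusted p = 2.2e-06), and 0.64 to 0.78 without any one library.

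*S100a13* (chromosome 3, 90421742 to 90431888), whose protein takes part in the export of FGF1 and interleukin-1α, did not pass. Its counts were 966, 1094 and 682 in WT against 907, 911 and 1046 in the libraries labelled cKO, with 20.3 ± 2.43 and 22.5 ± 0.818 CPM (SD, n = 3 each). WT replicate 2 lay among the libraries labelled cKO, and the log2 fold change was 0.14 (standard error 0.089, adjusted p = 0.235). The unadjusted 95% interval ran from -0.03 to 0.32, and the value was 0.044 without WT replicate 3 and at most 0.19 when any other library was left out. The ratio of *S100a1* to *S100a13* in TPM was 0.931, 1.03 and 1.07 in the WT libraries and 1.63, 1.49 and 1.34 in those labelled cKO. This ratio was chosen after the values were seen and is given without a test, and its groups did not overlap. The table's models of this pair do not overlap, but in GENCODE M39 exons of *S100a13* cover 88.5% of the exonic bases of *S100a1* on the opposite strand. The library kit keeps strand, but the strand setting of the counting is not given in the sources used here, so the split of reads between *S100a1* and *S100a13* is uncertain.

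Chondrocyte markers also differed between the groups in which *S100a1* differed. Of 11 tested genes of 12, 10 passed as higher, at a median log2 fold change of 4.05, and *Col2a1* passed as lower (-0.84). *Comp*, a cartilage matrix protein and the most abundant of the list by its mean over both groups, rose from 566.7 ± 26.4 to 2116 ± 75.1 CPM (SD, n = 3 each). The summed level was 1973 to 2186 CPM in WT against 3021 to 3215 CPM in the libraries labelled cKO. This higher sum rested on *Comp*. *Col2a1*, the most abundant of the list in WT, fell from 1427 ± 77.7 to 797.3 ± 47.5 CPM (SD, n = 3 each). *Cnmd*, which encodes chondromodulin, went from 0.381 ± 0.202 to 45.6 ± 2.73 CPM, and *Acan*, the gene of aggrecan, from 0.124 ± 0.0735 to 20.2 ± 0.521 CPM (SD, n = 3 each). *Acta1* of skeletal muscle had 73 to 312 counts, and 5 of the 8 skeletal muscle markers stayed at 3 counts or fewer in every library (*Ckm*, *Myh1*, *Myh2*, *Myh4* and *Myog*). Of the 2 tested muscle markers, *Acta1* passed as lower (log2 fold change -1.67) and *Tnnt3*, with 4 to 21 counts, as higher, a call that was lost without any one library. The part of any of these cells in the level of *S100a1* was not tested.

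*S100a16* (chromosome 3, 90444561 to 90450458), a widely expressed member linked to fat cell differentiation, was 1.63-fold lower. Its counts of 2382, 2684 and 2313 in WT stood against 1488, 1370 and 1483 in the libraries labelled cKO. Every WT library, at 52.9 to 59.6 CPM, was above every library labelled cKO, at 32.6 to 35.3 CPM. On the log2 scale the change was -0.70 (standard error 0.061, adjusted p = 4.58e-08), and it stayed between -0.75 and -0.65 when any one library was left out. Among adipocyte markers, 4 of 7 stayed at 3 counts or fewer in every library (*Cfd*, *Cidec*, *Lep* and *Plin1*), and *Adipoq* had at most 8 counts. Both tested ones, *Pparg* and *Fabp4*, passed as higher, with log2 fold changes of 0.80 and 0.78. Their list summed to 6.11 to 6.41 CPM in WT against 9.35 to 12.6 CPM in the libraries labelled cKO, and its part in the level of *S100a16* was not tested.

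*S100a6*, or calcyclin (chromosome 3, 90520189 to 90531488), a member associated with proliferating and mesenchymal cells, was lower by a small margin that rested on the libraries chosen. It was counted 19556, 23225 and 11257 times in WT against 13748, 12770 and 14351 times in the libraries labelled cKO. In CPM the WT libraries held 434.2, 467.7 and 289.9, so that WT replicate 3 fell below the 315.7 to 326.5 of the libraries labelled cKO. The coefficient of variation was 23.8% in WT against 1.68% in the libraries labelled cKO. This gave a log2 fold change of -0.31 with a standard error of 0.11 (adjusted p = 0.0332). Without WT replicate 3 it was -0.49 (adjusted p = 4.41e-10), whereas without WT replicate 2 it was -0.18 (adjusted p = 0.174), and it also missed the threshold without WT replicate 1 or any one of the libraries labelled cKO (adjusted p = 0.0679 to 0.124). DESeq2 gave -0.32 with an adjusted p-value of 0.199.

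*S100a11*, or calgizzarin (chromosome 3, 93427795 to 93433594), which binds annexin A1 at membranes, showed the smallest difference that passed. Its counts were 11182, 13234 and 8650 in WT against 9127, 9122 and 9869 in the libraries labelled cKO. WT replicates 1 and 2, at 248.3 and 266.5 CPM, were above all libraries labelled cKO, which held 216.8 to 229.3 CPM, but WT replicate 3 lay among them at 222.7 CPM. A log2 fold change of -0.15 with a standard error of 0.054 resulted (adjusted p = 0.0329). It missed the threshold without WT replicate 1, WT replicate 2, cKO replicate 1 or cKO replicate 3 (adjusted p = 0.0564 to 0.148), and its size ranged from -0.22 without WT replicate 3 to -0.10 without WT replicate 2. The processed pseudogene *S100a11-ps* had 0 counts in every library.

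**Figure D3:**
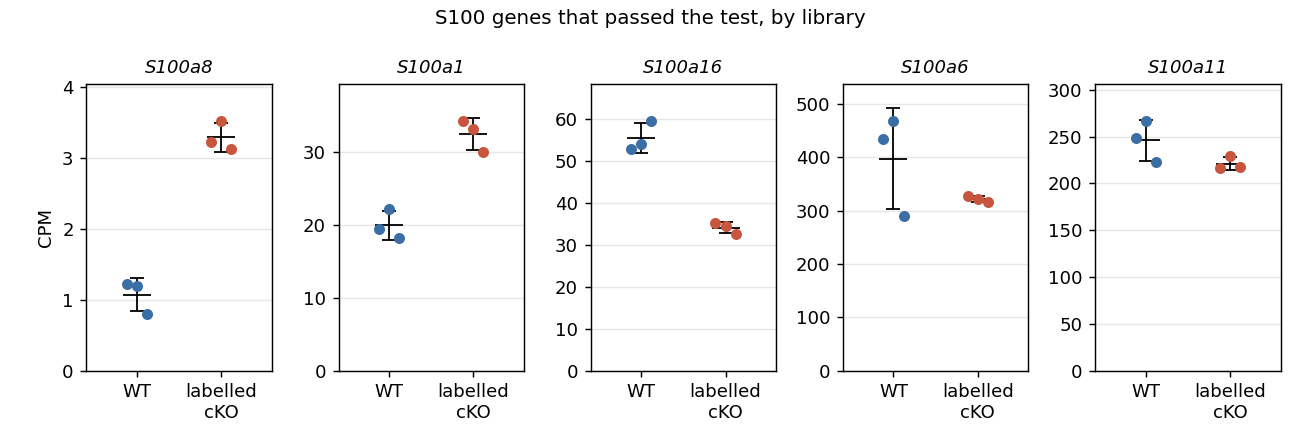
CPM of the 5 S100 genes that passed the test, each on its own axis starting at 0, with 1 point per library and bars at the mean ± 1 SD (n = 3 per genotype). The groups are apart for *S100a8*, *S100a1* and *S100a16*, while 1 WT library lies below the libraries labelled cKO for *S100a6* and among them for *S100a11*.

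*S100a10*, also called p11 (chromosome 3, 93462387 to 93471950), the calcium-independent partner of annexin A2, did not pass. It was counted 3309, 3661 and 2425 times in WT against 2881, 2803 and 3262 times in the libraries labelled cKO, which gave 69.9 ± 6.44 and 70.2 ± 1.68 CPM (SD, n = 3 each). Its log2 fold change was 0.0058 (standard error 0.061, adjusted p = 0.954), with an unadjusted 95% interval from -0.11 to 0.12. Its sign was negative with DESeq2, with median-ratio size factors, and without WT replicate 3 or cKO replicate 3. *Anxa2*, its partner, passed as lower in the same libraries, from 860.1 ± 34.8 to 572.0 ± 6.09 CPM (SD, n = 3 each).

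*S100a4*, also known as fibroblast-specific protein (chromosome 3, 90511078 to 90513352), binds non-muscle myosin and marks motile fibroblasts and some myeloid cells. It was counted only 161, 177 and 167 times in WT against 184, 193 and 255 times in the libraries labelled cKO. The libraries labelled cKO lay just above WT, at 4.37 to 5.61 CPM against 3.57 to 4.30 CPM. This difference of 0.38 on the log2 scale (standard error 0.17) did not pass (adjusted p = 0.0949), although without WT replicate 3 it did (0.47, adjusted p = 0.0491). The length of *S100a4* in the table is 584 bases. In GENCODE M39, 302 of its 908 exonic bases (33.3%) belong also to *Gm42674*, a readthrough gene on the same strand that had 0 counts in every library. How reads that fit both were counted is not given in the sources used here, so the level of *S100a4* is uncertain. Of 11 fibroblast markers, all tested, 3 passed as higher and 6 as lower, with a median of -0.23, and their summed level was 2736 to 2774 CPM in WT against 2614 to 2686 CPM in the libraries labelled cKO. The most abundant, *Dcn*, which encodes decorin, fell from 1768 ± 12.5 to 1505 ± 20.5 CPM (SD, n = 3 each). The 6 lower genes had log2 fold changes from -1.45 (*Twist2*) to -0.23 (*Dcn*). The 3 higher ones were *Lum* (1.49), *Dpt* (1.35) and *Pdgfra* (0.45).

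*S100b* (chromosome 10, 76089687 to 76096993), known from glia and Schwann cells and from cartilage, did not pass either. It was counted 627, 769 and 617 times in WT against 512, 468 and 643 times in the libraries labelled cKO. The groups overlapped in CPM at 13.9 to 15.9 in WT against 11.8 to 14.1 in the libraries labelled cKO, with cKO replicate 3 above WT replicate 1. The log2 fold change was -0.25 (standard error 0.10, adjusted p = 0.0609). Without WT replicate 1 or cKO replicate 3 it passed, at -0.32 and -0.33 (adjusted p = 0.0354 and 0.0271). Among 8 Schwann cell markers, 5 were tested, and 1 passed as higher and 2 as lower, with a median of -0.79, while their summed level was 7.47 to 8.2 CPM in WT against 19.3 to 22.7 CPM in the libraries labelled cKO. The one that was higher, *Mbp* (128, 191 and 123 counts in WT against 771, 730 and 924), encodes myelin basic protein and made up most of that sum where the label was cKO, and *Ngfr* and *Cdh19* were lower. The call of *Cdh19*, with 4 to 24 counts, was lost without any one library (adjusted p = 0.054 to 0.119). *Sox10*, which specifies this lineage, had at most 11 counts in WT against 0 in the libraries labelled cKO, and *Foxd3* had 3 counts or fewer in every library. Of the 11 tested chondrocyte markers, 10 passed as higher and 1 as lower in the same libraries. The part of Schwann cells or chondrocytes in the level of *S100b* was not tested. The gene *Dip2a* spans part of *S100b* on the opposite strand in the table.

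**Figure D4:**
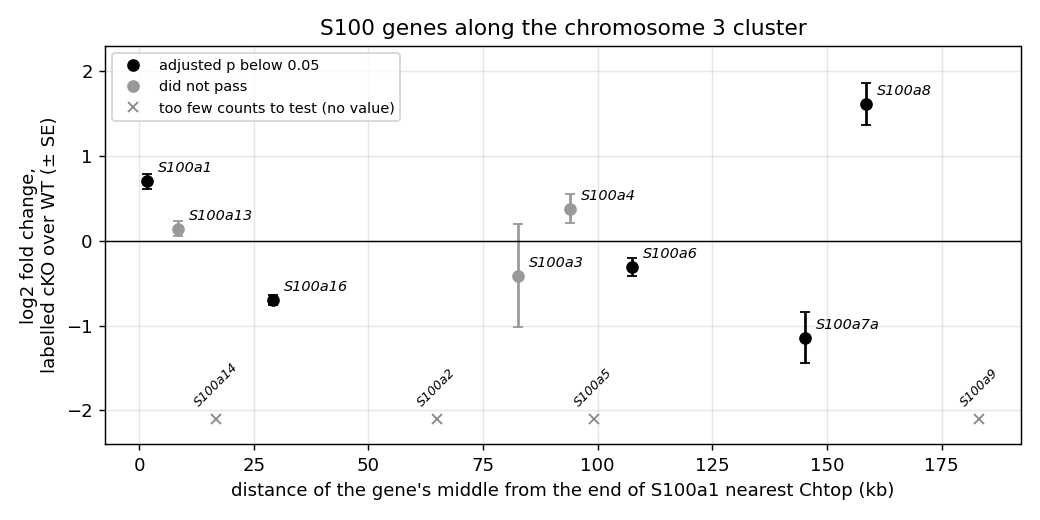
Log2 fold change (± 1 standard error, labelled cKO over WT) of the S100 genes of the chromosome 3 cluster against the distance of each gene's middle from the outer end of *S100a1*, in kb. Black points passed and grey points did not, crosses at the bottom mark genes with too few counts to test and carry no value, and both higher genes have a neighbour that was not higher, *S100a13* beside *S100a1* and *S100a7a* beside *S100a8*.

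Outside the members, 8 further S100 genes were listed in the table and 2 of them were tested. *S100a7a*, whose human relative psoriasin is an antimicrobial protein of skin, was counted 108, 146 and 68 times in WT against 58, 43 and 35 times in the libraries labelled cKO, and passed as lower with -1.14 ± 0.30 as log2 fold change and standard error (adjusted p = 0.00533). It lies between *S100a6* and *S100a8* on the chromosome, and its groups did not overlap in CPM. *S100a3* had 7 to 26 counts and did not pass (log2 fold change -0.41, adjusted p = 0.641). *S100a2*, *S100a5*, *S100a14* and *S100g* had at most 12 counts in any library, and *S100a7l2* and *S100z* had 0.

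Receptors that S100 proteins bind at the cell surface passed in both directions. All 7 listed receptors were tested, of which 4 were higher and 2 lower, at a median log2 fold change of 0.70, beside 20.1% of all tested genes higher and 19.2% lower. Macrophages also express *Cd36* and *Tlr4*, and the 13 tested macrophage markers were higher in the same libraries (median 3.15), but their part in the receptor levels was not tested. *Cd36*, a scavenger receptor for lipids and for S100A8/A9 loaded with fatty acids, rose from 71.6 ± 4.69 to 418.9 ± 11.2 CPM (SD, n = 3 each). *Tlr4*, the receptor for the LPS used here and for S100A8, rose from 63.9 ± 0.984 to 87.2 ± 3.82 CPM (SD, n = 3 each), with 0.45 ± 0.049 as log2 fold change and standard error (adjusted p = 8.62e-07). *Emb* (embigin) and *Alcam*, adhesion molecules of the immunoglobulin superfamily, had log2 fold changes of 0.71 and 0.70. In the other direction, *Bsg* (basigin, a receptor for S100A9) fell from 1782 ± 59.6 to 947.3 ± 6.49 CPM (SD, n = 3 each), and *Mcam*, an adhesion molecule that binds S100A8/A9, was counted 170 to 173 times in WT against 40 to 65 times in the libraries labelled cKO (log2 fold change -1.68). *Ager*, which encodes RAGE, had 6 to 66 counts and did not pass (log2 fold change 1.21, standard error 0.61, adjusted p = 0.136).

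Intracellular partners also passed in both directions. Of 14 listed, 13 were tested, 3 passed as higher and 7 as lower, with a median log2 fold change of -0.23. Among all tested genes 20.1% were higher and 19.2% lower, with a median of 0.0077. Of the annexins, which bind membranes and S100 dimers, *Anxa2* (-0.59), *Anxa5* (-0.33), *Anxa6* (-0.23) and *Anxa1* (-0.10) passed as lower and *Anxa11* (0.46) as higher, all as log2 fold changes. *Ahnak*, a giant scaffold that joins the complex of annexin A2 and S100A10, rose from 976.3 ± 24.1 to 1351 ± 14.6 CPM (SD, n = 3 each), and *Cacybp*, the calcyclin-binding protein that S100A6 contacts, had a log2 fold change of 0.17 (adjusted p = 0.025). *Myh9*, the non-muscle myosin heavy chain bound by S100A4, fell by 0.26 on the log2 scale, and *Dlc1*, whose protein S100A10 binds, by 0.28. The calls of *Anxa1* and *Cacybp* were lost in 4 and 3 of the 6 refits without 1 library. *Fgf1*, exported together with S100A13, was counted 25 to 52 times in WT against 3 to 18 times in the libraries labelled cKO, with -1.84 ± 0.54 as log2 fold change and standard error (adjusted p = 0.0118), which missed the threshold without cKO replicate 3 (adjusted p = 0.0572). *Il1a* (log2 fold change -0.41, adjusted p = 0.325), *Sugt1* (-0.02, adjusted p = 0.793) and *Stub1* (0.07, adjusted p = 0.308) did not pass, and *Syt1* had too few counts to be tested. Of the osteoblast markers, 5 of 7 were tested, and 2 passed as higher and 3 as lower. The higher ones were *Ibsp* and *Alpl*, with log2 fold changes of 2.01 and 0.68. Among the lower ones, the collagen gene *Col1a1* fell from 5799 ± 315 to 3648 ± 139 CPM (SD, n = 3 each). The call of *Sp7* was lost in 5 of the 6 refits without 1 library, all but that without cKO replicate 1 (adjusted p = 0.0504 to 0.145). *Runx2* missed the threshold without cKO replicate 1 or cKO replicate 3 (adjusted p = 0.0508 to 0.0516). Without cKO replicate 3 only 1 osteoblast marker was therefore lower. Both tested osteocyte markers, *Pdpn* and *Fbln7*, passed as lower.

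**Figure D5:**
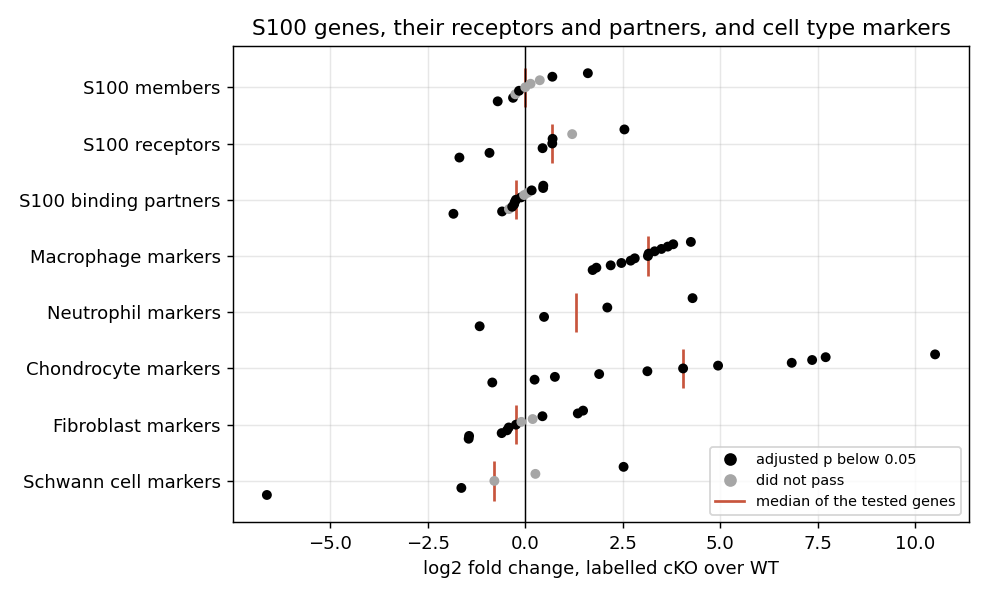
Log2 fold change (labelled cKO over WT) of every tested gene of 8 lists, 1 point per gene, black where the adjusted p-value was below 0.05, with a vertical bar at each list's median. The S100 members lie between -0.70 and 1.61 around a median of 0.0058, whereas the macrophage markers all lie above 1 with a median of 3.15.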

How the data were processed

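RNA-seq was analysed from 6 libraries of stimulated osteocytes, 3 WT and 3 labelled cKO, grouped by their titles. Paired reads of 150 bp were trimmed by the authors, mapped to mm39 by HISAT2 (2.0.5 per the submitters' processing notes) and assigned to genes by featureCounts (1.55.0-p3), and raw counts were deposited without normalization. The methods of the study give another featureCounts version and also name RSEM, so how reads shared by genes were counted is uncertain. They also deposited a gene length in bases, from which the TPM here were computed. Counts were tested with edgeR 4.0.16 in R 4.3.3 (filterByExpr, TMM, glmQLFit, glmQLFTest, genotype as the only term), with Benjamini-Hochberg adjustment over 17146 genes. Standard errors were taken from the log2 fold change and its F statistic.

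The members, lists, named genes and alternatives were chosen with earlier results of these data known. Named were all members, the other S100 genes, tested receptors and partners, and some genes of each marker list. From the marker lists these were mainly abundant genes, genes that passed and some of those near 0, not every gene of these kinds. Alternatives were DESeq2 1.42.0, limma-voom (limma 3.58.1), other scalings and filters, halved counts, a replicate block, a fold limit and each library left out. The main edgeR fit and those of DESeq2 and limma-voom were checked on simulated counts for their fold changes and calls. The standard errors and the other alternatives were not checked in this way. Replicates differed by more than sampling noise (chi-square per gene 4.88 to 13.9), so all libraries were kept separate. Promoter windows are from RefSeq (GRCm38.p6), and exon overlaps from GENCODE M39 on GRCm39, the build the files use. The planned comparison of protein sequences was not made here.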

Additional observations from a re-analysis of the deposited data

How the results depend on the processing

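Across 14 refits with another tool, scaling, filter, halved counts, a block or 1 library left out, *S100a8*, *S100a1* and *S100a16* kept their direction and passed every time, and *S100a13* kept its direction and never passed. *S100a6* passed in 7 of the 14 and *S100a11* in 9. The number of members lower in the libraries labelled cKO was 3, against 1 with library size only and 0 once a log2 fold change of 1 in size was asked for, and it ranged from 1 to 3 with 1 library left out. The number higher was 2, against 1 with that fold limit, and it ranged from 2 to 3 with 1 library left out. The log2 fold change of *S100a10*, near 0, turned negative with DESeq2 (-0.0042), with median-ratio size factors (-0.0042), without WT replicate 3 (-0.072) and without cKO replicate 3 (-0.0092), and lay between -0.072 and 0.037 when any one library was left out. With the fold limit 1 receptor was higher and 1 lower, and 0 partners were higher and 1 lower. With at least 10 counts asked for in every library, 5 chondrocyte markers were higher instead of 10 and 0 Schwann cell markers lower instead of 2. The genes lost there had fewer than 10 counts in some library, so this filter removed them and they were not retested. They were *Acan*, *Cnmd*, *Col9a1*, *Col9a2*, *Matn1*, *Ngfr* and *Cdh19*. Why the other values moved was not tested. Libraries with the same replicate number did not visibly deviate together (correlations of -0.000976, -0.00386 and -0.0178), which cannot exclude that a number marks a shared preparation. With the number as a replicate block 2 members were higher and 3 lower, with *S100a6* at -0.28. *S100a9*, at 0 counts, could not be tested at this depth.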
